A study of Mus musculus with 8 samples.

Results

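The 10 genes described here encode the fibroblast growth factor (FGF) receptors Fgfr1, Fgfr2, Fgfr3 and Fgfr4, the ligand Fgf2, and brakes on the signal, namely the Sprouty genes Spry1, Spry2 and Spry4, the Sprouty-related gene Spred1 and the ERK phosphatase gene Dusp6. They were listed by symbol and looked up among the 57180 genes of a count table and a TPM table (transcripts per unit of library, corrected for the length of each gene), and all 10 were found. RNA was sequenced from freshly isolated, sorted muscle stem cells of mice, 4 libraries labelled WT (control) and 4 labelled RhoA het, from SC-RhoAfl/+ animals with 1 floxed and 1 wild-type RhoA allele, also labelled as a RhoA knockdown. What SC stands for, the driver of recombination, the age of the animals and whether each library came from 1 animal are not given in the sources used here, so p-values measure the spread between these libraries.

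FGFs bind their receptors together with heparan sulfate, and the activated receptor kinase signals through the adaptor Frs2 to RAS and the kinases MEK and ERK. ERK activity induces Sprouty, Spred and Dusp6 genes, whose products damp the same cascade. In muscle, FGF2 is known as a growth signal for stem cells, Fgfr1 and Fgfr4 as their main receptors, and Spry1 as a gene of quiescent stem cells that restrains FGF signalling.

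The libraries held 19138763 to 25606342 assigned fragments. The muscle stem cell marker Pax7 lay between 112 and 176 CPM (library-scaled counts, with TMM factors) in control and between 78.5 and 106 CPM in RhoA het. Its groups did not overlap, as was so for 1.81% of all genes tested. Vcam1 lay between 1901 and 5085 CPM over both groups. Rhoa measured 383, 309, 273 and 334 CPM in control replicates 2, 5, 7 and 8 and 253, 271, 253 and 282 CPM in RhoA het replicates 5, 6, 7 and 8, and this order of libraries is kept for every gene below. The Rhoa ranges overlapped, with a log2 fold change of -0.29 (SE 0.13, edgeR adjusted p 1, unadjusted p 0.0495). Some libraries stood apart. Y-linked genes had 14358 fragments in control replicate 2 and 14659 in RhoA het replicate 6, while the other 6 libraries had no more than 2 each. Xist had 5 and 7 fragments in those 2 libraries and 3539 to 5188 in the other 6. RhoA het replicate 6 also had the highest endothelial marker sum, 683 CPM over 10 genes against at most 171 CPM in the other 7 libraries, with Pecam1 at 137 CPM against at most 16.1 CPM elsewhere. Both libraries numbered 5 were high in Mki67, a proliferation marker, with 57.6 and 37.6 CPM against at most 3.8 CPM elsewhere.

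Fgfr4 and Fgfr1 made up nearly all FGF receptor mRNA in these cells. On the TPM scale, which allows levels to be compared between genes, Fgfr4 averaged 289 ± 64.7 TPM and Fgfr1 187 ± 35.6 TPM (SD, n = 8). Fgfr3 averaged 6.97 ± 0.949 TPM and Fgfr2 0.619 ± 0.396 TPM over the same 8 libraries. As shares of the summed receptor TPM, Fgfr4 held 51.2% to 73.8%, Fgfr1 24.9% to 46.9%, Fgfr3 1.16% to 1.9% and Fgfr2 at most 0.308%. Fgfr4 exceeded Fgfr1 in all 8 libraries, by 1.09-fold in RhoA het replicate 8 up to 2.96-fold in control replicate 7.

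**Figure D1:**
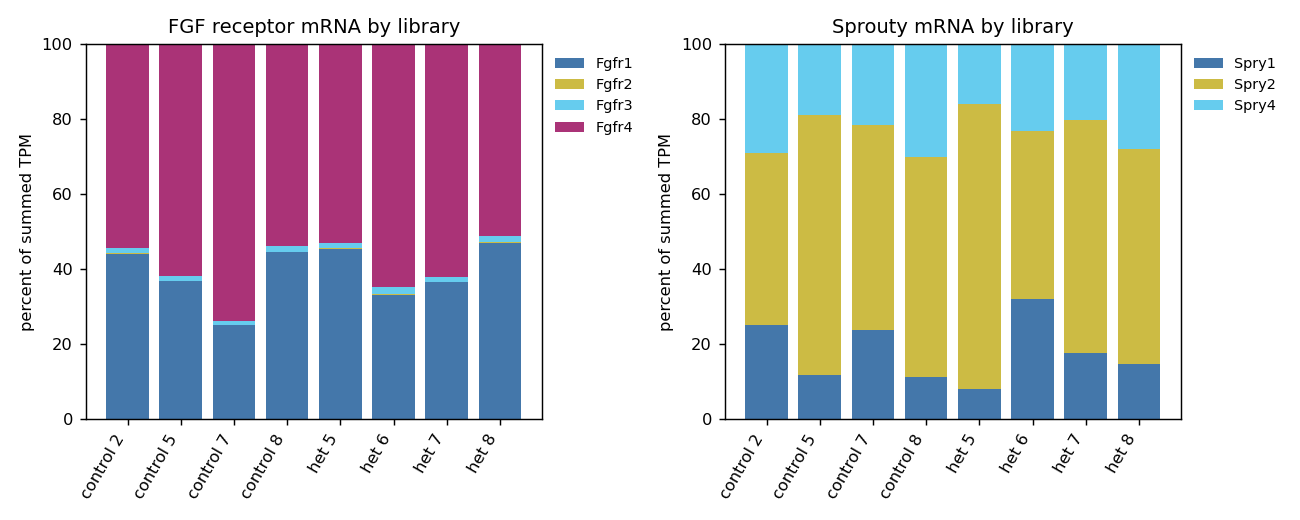
Share of each gene (percent of summed TPM, bars stacked to 100) in the 4 FGF receptor genes and in the 3 Sprouty genes, for each library of both groups. Fgfr4 held at least 51.2% of receptor TPM in all 8 libraries, and the Spry2 share was highest in both libraries numbered 5.

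Fgfr4 (ENSMUSG00000005320.10, mm39 chr13:55300453-55316572) encodes a receptor restricted to few tissues and typical of myogenic cells. It measured 320, 351, 391 and 282 CPM in control and 245, 311, 396 and 242 CPM in RhoA het. Number 7 gave the highest value in both groups, and the groups overlapped. RhoA het was lower by a log2 fold change of -0.17 (SE 0.18, with -0.59 to 0.24 as 95% interval), which did not pass (edgeR adjusted p 1). It was -0.34 without RhoA het replicate 7 and -0.08 without RhoA het replicate 8.

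Fgfr1 (ENSMUSG00000031565.20, mm39 chr8:26003670-26065734), the receptor through which FGF2 is known to act on muscle stem cells, measured 719, 579, 367 and 646 CPM in control and 582, 442, 647 and 615 CPM in RhoA het. Control replicate 7 and RhoA het replicate 6 were the low libraries, and the other 6 lay between 579 and 719 CPM. RhoA het minus control came to -0.02 on the log2 scale (SE 0.21; interval -0.50 to 0.47; edgeR adjusted p 1). It was 0.11 without control replicate 2, 0.04 without control replicate 8, 0.09 without RhoA het replicate 6 and -0.18 without control replicate 7, so its sign rested on single libraries. Control replicate 7 combined the lowest Fgfr1 with a high Fgfr4, which gave the highest Fgfr4 share of all libraries.

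Fgfr3 (ENSMUSG00000054252.19, mm39 chr5:33879018-33894412) was low and steady, with 16.4, 15, 12.4 and 16.3 CPM in control and 12.3, 18.4, 17.3 and 16.5 CPM in RhoA het. Its highest value was 1.49 times its lowest, and its log2 fold change was 0.11 (SE 0.17, interval -0.28 to 0.49). Fgfr2 (ENSMUSG00000030849.19, mm39 chr7:129764181-132725079) was near the lower end of what was tested, with 20 to 100 fragments per library. It measured 5.28, 1.81, 0.75 and 1.22 CPM in control and 2.82, 0.951, 0.897 and 2.72 CPM in RhoA het, so control replicate 2 was the high library. The log2 fold change of Fgfr2 was -0.29 (SE 0.64, interval -1.71 to 1.14) and turned to 0.55 without control replicate 2. In the numbered pairs, which leave out control replicate 2 and RhoA het replicate 6, Fgfr2 was higher in RhoA het in 3 of 3, by 0.61, 0.23 and 1.10 on the log2 scale for numbers 5, 7 and 8. The fit with the replicate block gave 0.68 (SE 0.36, interval -0.11 to 1.47, edgeR unadjusted p 0.0852, adjusted p 0.931). The deposited Fgfr2 model runs far past the receptor and shares 314 exon bases with Ctbp2, and fragments there could not be assigned to either gene. Fgfr3 shares 998 of its 7158 exon bases with an antisense gene that averaged 0.25 fragments, and fragments in that part were likewise lost to both genes.

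Fgf2 (ENSMUSG00000037225.14, mm39 chr3:37402495-37464257) was the ligand among the 10 genes, and its mRNA was scarce in the stem cells at 2.09 ± 0.69 TPM (SD, n = 8), with 49 to 139 fragments per library. It measured 7.34, 3.72, 1.84 and 4.27 CPM in control and 5.12, 6.56, 4.12 and 3.14 CPM in RhoA het. The highest values belonged to control replicate 2 and RhoA het replicate 6, the libraries with Y-linked reads, and the groups overlapped. The groups differed by 0.15 on the log2 scale (SE 0.40; interval -0.75 to 1.05; edgeR adjusted p 1), and it was -0.05 without RhoA het replicate 6 and -0.11 without control replicate 7. Fgf2 shares 640 of its 6782 exon bases with the opposite-strand gene Nudt6, and counting did not use strand, so fragments in the shared part were lost to both genes.

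The Sprouty genes were far more abundant than the ligand, and Spry2 led them. Spry2 averaged 249 ± 114 TPM, Spry4 91.3 ± 9.54 TPM and Spry1 71.7 ± 34.8 TPM (SD, n = 8), while Spred1 averaged 49.4 ± 11.1 TPM and Dusp6 124 ± 27.6 TPM. Ordered by mean TPM, the genes ran Fgfr4, Spry2, Fgfr1, Dusp6, Spry4, Spry1, Spred1, Fgfr3, Fgf2 and Fgfr2. Of the 9 neighbours in this order, 3 kept it in all 8 libraries, namely Spred1 over Fgfr3, Fgfr3 over Fgf2 and Fgf2 over Fgfr2. The 7 genes from Fgfr4 to Spred1 were neighbours whose order changed in at least 1 library: Fgfr4 exceeded Spry2 in 6 of 8 libraries, Spry2 exceeded Fgfr1 in 5, and Dusp6 exceeded Spry4 in 7.

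**Figure D2:**
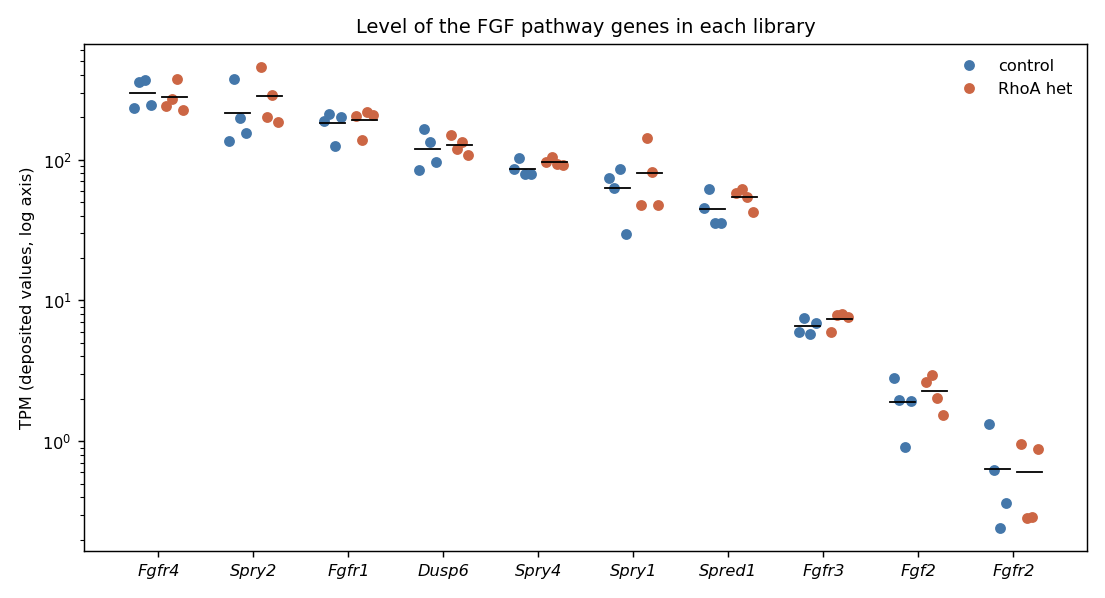
Deposited TPM (log axis) of the 10 genes in each library, ordered by mean, with points for single libraries by group and bars at the mean of each group (n = 4). Control and RhoA het points overlap for all 10 genes, and Spry1 and Spry2 spread more than Spry4.

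Spry2 (ENSMUSG00000022114.6, mm39 chr14:106129381-106134253), a Sprouty gene induced by several growth factors, measured 110, 219, 124 and 105 CPM in control and 273, 137, 181 and 117 CPM in RhoA het. The libraries numbered 5 were highest in both groups, and they were also the libraries high in cell cycle markers. Their summed fibro-adipogenic markers were the highest too, 14692 and 13070 CPM against at most 10296 CPM elsewhere, though their mean log2 CPM was not. Their mean log2 CPM of dissociation response genes was the lowest, 9.77 and 9.69 against at least 10.44 elsewhere. The part of any of these in the Spry2 level was not tested. In bulk RNA, fewer cells expressing a gene and less RNA per cell cannot be told apart. For Spry2 the difference on the log2 scale was 0.34 (SE 0.31, interval -0.35 to 1.04; edgeR adjusted p 1, two-sided exact permutation p 0.371). It was 0.05 without RhoA het replicate 5, 0.64 without control replicate 5 and 0.34 without both. When libraries were matched by their 3 shared numbers, Spry2 was higher in RhoA het in 3 of 3 pairs, by 0.32, 0.54 and 0.15 on the log2 scale for numbers 5, 7 and 8. A fit with these pairs as a replicate block gave a log2 fold change of 0.32 (SE 0.12, interval 0.052 to 0.58) with an edgeR unadjusted p of 0.023 and an adjusted p of 0.835. It was the only one of the 10 genes under an unadjusted p of 0.05 with the block, where 5.26% of 15714 genes were.

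Spry1 (ENSMUSG00000037211.13, mm39 chr3:37694096-37698747) had another profile, with 83.6, 51.3, 74.9 and 28 CPM in control and 39.6, 135, 71.6 and 41.6 CPM in RhoA het. RhoA het replicate 6, the library with the high endothelial markers, was highest and control replicate 8 lowest, a 4.83-fold span. RhoA het against control gave 0.28 on the log2 scale (SE 0.44; interval -0.71 to 1.26; edgeR adjusted p 1), and -0.22 without RhoA het replicate 6. Among the 3 Sprouty genes, the Spry1 share of summed TPM ran from 7.91% in RhoA het replicate 5 to 31.9% in RhoA het replicate 6, and the Spry2 share from 44.9% to 76.1% between the same libraries in reverse order. The TPM ratio of Spry2 to Spry1 thus differed between libraries of 1 genotype from 1.41 to 9.61 in RhoA het and from 1.83 to 5.93 in control. Spry1 shares 710 of its 2906 exon bases with the antisense gene Gm42922, which averaged 2.25 fragments per library. Fragments in the shared part were lost to both genes, so this low count does not show how many were lost. The TPM of Spry1 and its share among the Sprouty genes may thus be too low.

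Spry4 (ENSMUSG00000024427.8, mm39 chr18:38719300-38734468) was the steadiest brake. It measured 158, 136, 112 and 124 CPM in control and 131, 161, 134 and 130 CPM in RhoA het, with the highest values in control replicate 2 and RhoA het replicate 6. Its log2 fold change was 0.07 (SE 0.14, interval -0.24 to 0.38). Spred1 (ENSMUSG00000027351.15, mm39 chr2:116951855-117012760), which blocks RAS activation through neurofibromin, measured 119, 117, 71.9 and 79 CPM in control and 114, 137, 110 and 87.3 CPM in RhoA het. Control replicates 7 and 8 were its low libraries, and its log2 fold change of 0.22 had an SE of 0.20 and an interval of -0.24 to 0.67. It was 0.10 without control replicate 7 or RhoA het replicate 6 and 0.33 without control replicate 2.

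Dusp6 (ENSMUSG00000019960.9, mm39 chr10:99099093-99103351) encodes a phosphatase that inactivates ERK and is widely read as a gauge of ERK output. It measured 102, 145, 125 and 98.5 CPM in control and 135, 121, 126 and 102 CPM in RhoA het. Its group means differed little, 118 ± 21.9 and 121 ± 14.2 CPM (SD, n = 4 each), with a log2 fold change of 0.04 (SE 0.16, interval -0.31 to 0.39, edgeR adjusted p 1).

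None of the 10 genes passed the test between groups: 0 had a Benjamini-Hochberg adjusted p below 0.05 in edgeR's quasi-likelihood fit, beside 0% of the 15660 genes tested. At an unadjusted p under 0.05 there were again 0 of the 10, against 2.38% of genes tested, and no gene had groups that did not overlap, against 1.81%. DESeq2 also called 0 of the 10 genes, with 0 under an unadjusted p of 0.05. Over the 10 genes the median log2 fold change was 0.09 and 7 were above 0, beside a median of -0.00071 and 49.9% above 0 over all genes tested. With the replicate block, 0.0127% of 15714 genes were called and again 0 of the 10. The intervals leave room for differences of different size: changes beyond 0.39 in either direction on the log2 scale lay outside those of Spry4 and Dusp6, while those of Spry1, Spry2, Fgf2 and Fgfr2 reached past 1.

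**Figure D3:**
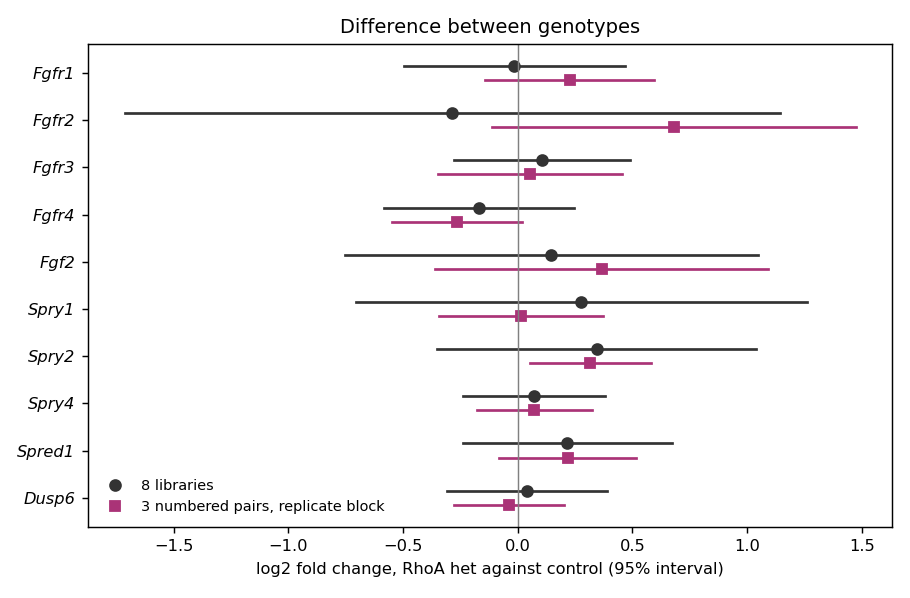
Log2 fold change of RhoA het against control with its 95% interval for each of the 10 genes, from all 8 libraries (circles) and from the 3 numbered pairs with the replicate block (squares). All intervals from 8 libraries include 0, and with the block only the Spry2 interval, 0.052 to 0.58, lies above it.

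The pairs of brakes differed in how closely their levels followed each other. Spry2 and Dusp6 had Pearson's r 0.859 (exact permutation p 0.0101, adjusted over 45 pairs 0.151) and Spearman's rho 0.929 (exact permutation p 0.00223, adjusted 0.0502) on log2 CPM over 8 libraries. Without the libraries numbered 5, which are farthest from the Spry2 median, r was 0.798. Spry4 and Spred1 had r 0.875 (exact permutation p 0.0036, adjusted 0.12) and rho 0.976 (exact permutation p 0.000397, adjusted 0.0179). Their r was 0.883 without control replicate 2 and RhoA het replicate 6, the libraries farthest from the Spry4 median. It was 0.724 without control replicates 7 and 8, the libraries farthest from the Spred1 median. By r, 0 of the 45 pairs passed an adjusted p of 0.05, and by rho 1 did, Spry4 with Spred1. On deviations from the group means both pairs passed by r, at 0.876 and 0.873 (adjusted permutation p 0.0491 for each). All these permutations treated the 8 libraries as independent, although numbers 5, 7 and 8 were taken to pair libraries. Deviations within a group are also tied to each other. The p-values of r and rho may thus be too small.

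The other pairs had a lower rho, and some changed sign when libraries were left out. Fgf2 and Spry4 had the highest r of the 45 pairs, 0.885 (exact permutation p 0.00533, adjusted 0.12), with rho 0.69 (exact permutation p 0.0694, adjusted 0.781). Their r was 0.695 without control replicates 7 and 2, farthest from the Fgf2 median, and 0.766 without the libraries farthest from the Spry4 median. Leaving out 1 library at a time kept it at 0.807 to 0.931. Spry1 and Spry2 had r -0.109 (exact permutation p 0.793, adjusted 0.985) and rho 0 (p 1), and r was -0.524 without RhoA het replicate 6 and control replicate 8 but 0.448 without the libraries numbered 5. The receptors Fgfr1 and Fgfr4 had r -0.326 (exact permutation p 0.43, adjusted 0.774; rho -0.0476, p 0.935, adjusted 0.978), which became 0.277 without control replicate 7 and RhoA het replicate 6.

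**Figure D4:**
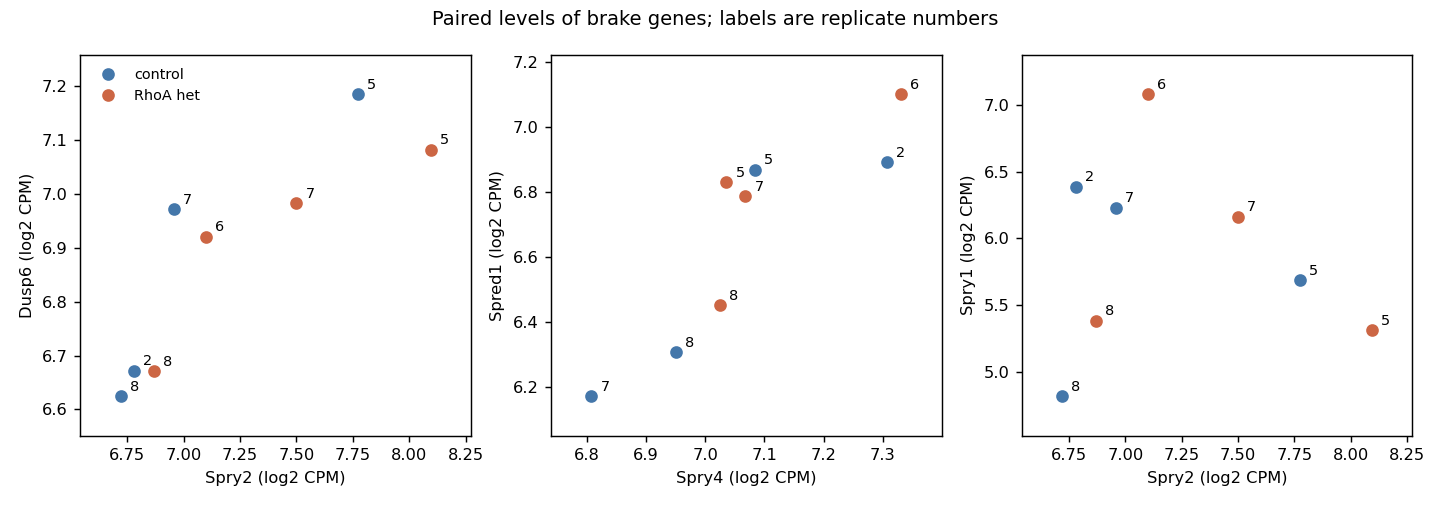
Log2 CPM of 3 pairs of brake genes in the 8 libraries, coloured by group and labelled by replicate number. Spry2 and Dusp6 (r 0.859) and Spry4 and Spred1 (r 0.875) lie along a line, and Spry2 and Spry1 (r -0.109) do not.

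The sequences just upstream of Spry2, Dusp6 and Spry1 are shown because r was 0.859 for the first pair, -0.109 for Spry1 with Spry2 and 0.195 for Spry1 with Dusp6. They are the 250 bases before the RefSeq start on GRCm38.p6, an older build than that of the counts, on the strand of the gene, with each GC box (GGGCGG on either strand) in capitals.
Spry2, chr14:105896820-105897069, minus strand: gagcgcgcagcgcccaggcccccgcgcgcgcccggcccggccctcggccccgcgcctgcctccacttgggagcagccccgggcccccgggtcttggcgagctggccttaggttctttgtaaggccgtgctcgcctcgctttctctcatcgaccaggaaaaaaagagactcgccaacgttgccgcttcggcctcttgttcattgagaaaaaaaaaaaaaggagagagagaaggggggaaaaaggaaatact
Dusp6, chr10:99262981-99263230, plus strand: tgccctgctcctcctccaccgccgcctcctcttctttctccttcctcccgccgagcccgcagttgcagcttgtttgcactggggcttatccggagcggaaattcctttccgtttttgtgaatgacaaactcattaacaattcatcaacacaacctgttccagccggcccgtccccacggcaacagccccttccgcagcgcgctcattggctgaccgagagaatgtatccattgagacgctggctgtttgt
Spry1, chr3:37639697-37639946, plus strand: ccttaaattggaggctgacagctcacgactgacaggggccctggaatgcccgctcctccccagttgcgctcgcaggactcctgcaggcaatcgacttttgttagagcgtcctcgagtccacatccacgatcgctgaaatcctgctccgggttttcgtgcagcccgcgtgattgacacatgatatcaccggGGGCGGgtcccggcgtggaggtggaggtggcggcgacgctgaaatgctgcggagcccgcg
GC boxes were in the windows of 5 of the 8 genes with an entry, Fgf2, Fgfr3, Fgfr4, Spred1 and Spry1, against 35.4% of the 27025 genes with an entry, some of which, such as Fgfr3, have several windows. The ETS motif CCGGAAG (7.83% of genes), the CRE motif TGACGTCA (1.77%), the AP-1 motif TGANTCA (7.82%) and the CArG box bound by SRF (1.62%), searched on both strands, were in the windows of 0 of these 8 genes. Such a search says only whether these letters stand in the window.

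Genes whose log2 CPM followed each member most closely were looked up among 7924 genes of at least 10 CPM on average, by Pearson's r over the 8 libraries, as a description. A high r follows from picking the highest of so many genes, also over a part of the same libraries. Spry1 was closest to Vcam1, an adhesion molecule used to sort quiescent muscle stem cells (r 0.975, and 0.962 over the 6 libraries with at most 2 Y-linked fragments), and then to Sowahc (0.972) and P4ha2 (0.969). Spry2 was closest to Chmp1b (0.972), to the matrix protease gene Mmp2 (0.969) and to Jmjd1c (0.968). Dusp6 was closest to Dnajb11, a chaperone gene of the endoplasmic reticulum (0.986), Ctnnd1 (0.98) and Tram2 (0.973). For Spry4 the list held Tnfrsf1b (0.979), Cd74 (0.978) and Lgals9 (0.967). Cd74, a gene of antigen-presenting cells, was at 50.8 CPM in RhoA het replicate 6 and 17.8 CPM in control replicate 2, and at most 5.43 CPM elsewhere. Ptprc, the pan-leukocyte marker, reached 4.42 CPM in the same RhoA het library, and no other library exceeded 0.470 CPM. In the other 6 libraries Spry4 was at 112 to 136 CPM, and its r with Cd74 was 0.979 there. The part of such cells in the Spry4 level was not tested.

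Fgfr1 was closest to Vcp (0.978), Riox1 (0.971) and Ctdp1 (0.969), and Fgfr4 to R3hdm4 (0.931), Pex14 (0.93) and Bap1 (0.929). Fgfr3 was closest to Slc26a2 (0.951), Blnk (0.946) and Flii (0.919). Genes close to Fgfr2 included Ubash3b (0.948) and Fndc3a (0.935). The closest genes to Fgf2 were Cerk (0.965), Plbd1 (0.962) and Edem1 (0.959), and those to Spred1 were Rasa3 (0.976), Lrp6 (0.971) and the Notch target Hey1 (0.968).

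The rest of the pathway showed no called gene either: 0 genes were called in either direction in each of 6 lists. Among the other secreted FGFs, 5 of 17 were abundant enough to test (median log2 fold change 0.24), led by Fgf1 at 8.66 ± 8.08 TPM, Fgf7 at 5.87 ± 7.18 TPM and Fgf16 at 2.83 ± 1.06 TPM (SD, n = 8). Fgf7, a ligand mostly made by fibroblasts, was at 29.3 CPM in 1 control library, replicate 2, and at most 6.53 CPM in RhoA het, and its log2 fold change of -1.22 (SE 0.84) turned to 0.64 without that library. Fgf9 had the smallest p among higher ligands (0.58, SE 0.61) and was at -0.20 without RhoA het replicate 6. Of the co-receptors and modulators, 9 of 11 were tested (median -0.06). Sdc4, a heparan sulfate proteoglycan of muscle stem cells, was at 6703 ± 1752 TPM, far above Flrt1 at 29.5 ± 19.3 TPM and Gpc1 at 21.8 ± 8.93 TPM. Flrt2 (0.29, SE 0.20) and the decoy receptor gene Fgfrl1 (-0.13, SE 0.21) had the smallest p in each direction.

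Of 22 RAS-ERK cascade genes, 21 were tested, with a median log2 fold change of 0.01. The MEK gene Map2k1 led at 141 ± 25 TPM, with the adaptor gene Shc1 at 84.6 ± 9.63 TPM and Nras at 62.9 ± 14.4 TPM. Hras was at 3.64 to 4.83 CPM in control and 3.04 to 3.52 CPM in RhoA het, without overlap, the only such gene of the 21, where 1.81% of all genes tested had such groups. Its log2 fold change was -0.37 (SE 0.21, edgeR adjusted p 1). Rps6ka1 was at 0.87 (SE 0.61) in the other direction, from 0.54 without control replicate 5 to 1.66 without control replicate 8. The p38 arm, a branch that also acts downstream of FGF receptors in these cells, had 7 of 7 genes tested (median 0.0047) and was led by Map2k3 at 622 ± 127 TPM, Mapkapk2 at 44.2 ± 5.06 TPM and Mapk14 at 12.1 ± 1.88 TPM. Mapk12 (0.35, SE 0.33) had its smallest p among genes above 0 and Mapk11 (-0.29, SE 0.72) among those below. Mapk11 was at -1.37 with the replicate block and at 0.06 without RhoA het replicate 5 or 7, and Mapk12 at 0.13 without RhoA het replicate 8.

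Among other brakes, 11 of 12 were tested (median 0.03). Errfi1, an inhibitor of the EGF receptor family, was at 6693 ± 1719 TPM, above each of the 10 genes, while Dusp4 and Dusp5 were at 35.6 ± 6.75 and 29.3 ± 11.8 TPM. Spred3 (0.43, SE 0.24) and Dusp5 (-0.48, SE 0.33) had the smallest p in each direction, and Dusp5 was at -0.10 without control replicate 8. All 13 ERK-responsive transcription genes were tested, with a median of -0.12 and 4 above 0. Junb, Egr1 and Fos were very abundant at 6836 ± 2325, 6028 ± 1458 and 5224 ± 1617 TPM (SD, n = 8). These 3 also belong to the list of dissociation response genes, whose summed level was 24763 to 53308 CPM in control and 22788 to 47814 CPM in RhoA het. The part of tissue dissociation in the level of the brakes was not tested. Etv4 (0.48, SE 0.32) and Fosl1 (-0.26, SE 0.15) had the smallest p in each direction.

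Markers of other cell types were read from the same fit. Median log2 fold changes were 1.86 over 10 endothelial, 0.04 over 10 fibro-adipogenic, 0.15 over 4 myeloid and lymphoid, 1.01 over 4 erythroid, 0.13 over 7 mural, 0.05 over 7 Schwann, -0.10 over 4 tendon and -0.11 over 10 myofibre genes, with 0 genes called. They were -0.02 over 11 muscle stem cell genes, -0.08 over 15 dissociation genes and -0.23 over 15 cell cycle genes. Of the 11 muscle stem cell genes, only Pax7 had groups without overlap. The endothelial mean log2 CPM was 5.90 in RhoA het replicate 6, 2.91 to 3.13 in the other RhoA het libraries and 1.44 to 3.49 in control. The summed erythroid genes reached 320 CPM in RhoA het replicate 6 and 143 CPM in control replicate 7, and the other 6 libraries had 1.86 to 25.8 CPM. The mean log2 CPM of the cell cycle genes was 1.15, 4.87, 1.36 and 1.74 in control and 4.39, 2.58, 1.90 and 2.09 in RhoA het, so that RhoA het was the lower library for number 5 and the higher one for numbers 7 and 8.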

How the data were processed

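The authors deposited fragment counts per gene and TPM values per gene for 8 libraries. Per the file headers, featureCounts 1.6.4 counted paired fragments over the exons of GENCODE mouse release 34 (mm39) in STAR alignments, with no strand option and none for multi-mapping or multiply overlapping reads. The command named 10 alignment files; the 2 others were not analysed here. The submitters' processing notes also name FastQC, cutadapt and DESeq2. The deposited TPM were equal to values recomputed here from the counts and exon lengths. Per the labels' protocols, cDNA came from Trizol RNA by a low-input template-switching kit. A GENCODE release 21 table named 51884 of 57180 genes.

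The filterByExpr filter left 15660 genes. Groups (from titles) were compared with edgeR 4.0.16 (TMM, quasi-likelihood test, R 4.3.3) over 8 libraries without covariates, adjusted over all genes. Log2 CPM used a prior count of 2. Exact permutation tests ran over 70 assignments (smallest p 0.0286) or 40320 pairings. The script was tested on simulated data.

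Replicate numbers 5, 7 and 8 occur in both groups. Deviations from group means of same-numbered libraries correlated at 0.544, 0.231 and 0.488, so the numbers were taken to pair the libraries, on the data alone. Counts of any pair of libraries in 1 group differed beyond sampling noise (smallest chi-square over its degrees of freedom 48.7).

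The genes and lists were chosen with earlier results of these data known. Named were the 10 genes, and from each pathway list any called gene, the 3 with the highest mean TPM and the smallest p in each direction, plus the 3 genes most like each member, of which 1 is not reported here. Hras, Rhoa, Cd74, Ptprc and other markers are named as checks, some after their values were seen. Alternatives were other scalings, filters and tests (DESeq2 1.42.0, limma 3.58.1), the block, and omitted libraries. Sequences are from RefSeq (GRCm38.p6), for 8 of the 10 genes.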

Additional observations from a re-analysis of the deposited data

Results flagged for a closer look

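Each group of 4 libraries was checked for a library apart from its group by Dixon's ratio (critical value 0.829), over 54 groups of values. There were 5 such cases, some of them in the same library, where chance gives about 2.7. Spry2 was at 219 CPM in control replicate 5, with the other control libraries at 105 to 124 CPM. Spry4 was at 161 CPM in RhoA het replicate 6, with the others at 130 to 134 CPM.

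Among the marker lists, RhoA het replicate 6 had 5.90 as its mean log2 CPM over endothelial genes, against 2.91 to 3.13 in the other RhoA het libraries. The fibro-adipogenic genes had 6.31 in control replicate 7, against 7.22 to 7.27, and the cell cycle genes 4.87 in control replicate 5, against 1.15 to 1.74.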

How the results depend on the processing

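None of the 10 genes was called under any of 21 alternatives, with the lowest adjusted p over these at 0.835 (Spry2, replicate block). The count over all genes was 0 in every alternative but the replicate block over 3 pairs, which called 2, Acta1 and Atp2a1, both lower in RhoA het and named after their values were seen; the block changed no call among the 10 genes. Of 210 values for single genes, 25 changed sign, and Fgfr3, Fgfr4, Spry2 and Spred1 kept theirs throughout, over 0.02 to 0.21, -0.34 to -0.07, 0.05 to 0.64 and 0.10 to 0.33.

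With the replicate block the log2 fold change was 0.23 for Fgfr1, 0.68 for Fgfr2, -0.039 for Dusp6, 0.59 for Fgf7 and 0.024 for Fgfrl1. In the same 6 libraries without the block it was 0.19, 0.75, -0.045, 0.69 and 0.020, and -0.039 for Spry1. With the block as a random effect it was 0.11 for Fgfr1, 0.25 for Fgfr2 and 0.087 for Fgf7. For Fgfr1 it was 0.052 with total counts, 0.0030 with limma-voom and 0.094 and 0.095 with limma on log2(TPM + 1) and log2(TPM + 0.1). Leaving out 1 library gave -0.18 to 0.11 for Fgfr1, -0.58 to 0.55 for Fgfr2, -0.11 to 0.54 for Fgf2, -0.22 to 0.48 for Spry1, -0.0075 to 0.17 for Spry4, -0.038 to 0.15 for Dusp6, -0.20 to 0.99 for Fgf9, -1.58 to 0.64 for Fgf7 and -0.77 to 0.065 for Mapk11. The causes were not tested.

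The count of correlated pairs by r was 1 with total counts (Spry4 with Spred1), 2 with log2(TPM + 1) and 2 on deviations from group means (Spry2 with Dusp6 added in both), and 0 to 1 when 1 library was left out. Without control replicate 7 the pair was Spry1 with Spry4, at r 0.916. Over the 6 libraries with at most 2 Y-linked fragments, an alternative chosen after seeing the data, it was 0 (lowest adjusted exact permutation p 0.188). With so few libraries and 45 pairs, 1 pair alone could not have passed, so this count says little. Fgfr2 and Fgf2, at 20 to 139 fragments, had the fewest fragments of the 10 genes and the largest counting error.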
